A study of Mus musculus with 12 samples.

Results

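Serpins are protease inhibitors that work once. An exposed reactive centre loop is offered to the protease as bait, the protease cuts it, and the serpin then changes shape and traps the enzyme. Mice carry a row of Serpina3 genes where humans have the single gene SERPINA3, which encodes alpha-1-antichymotrypsin, and the copies differ most in the loop that selects the protease. Serpina3n, a secreted inhibitor of granzyme B and leukocyte elastase, is the best known of them, and Serpina3g is an intracellular inhibitor of lysosomal cathepsins. Liver is the classical site of secretion for the family, and Serpina3g is also known from activated blood cells.

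The 9 Serpina3 genes described here are Serpina3b, c, f, g, h, i, k, m and n, found by symbol in the tables of both bone regions, which have 18335 symbols in common. They were selected on the measured genotype difference in the metaphysis, where Serpina3h and Serpina3b were among the genes that differed most, so their metaphysis differences are given as a description with no test. RNA came from the femurs of male mice of mixed background aged 5 weeks, from the metaphysis, the flared end of the bone next to the growth plate, and from the diaphysis, its shaft. Each region was taken from wild-type animals (Dlx3+/+, WT) and from Dlx3Oc-cKO animals (cKO), with 3 libraries in each of the 4 groups. Dlx3 is a homeobox transcription factor of bone-forming cells. The labels abbreviate the driver of the deletion as Oc, which in this mouse line stands for the osteocalcin promoter, active in mature osteoblasts, and the dissected pieces also held RNA of marrow and muscle. The library titles begin with different numbers, but whether the 3 libraries of a group are 3 animals is not stated. The p-values here reflect library-to-library spread, some of it possibly technical.

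Levels are RPKM, reads scaled by transcript length and library depth, and differences are cKO minus WT on the log2(RPKM + 0.1) scale, which understates the change of a low gene. Depth read from the spacing of the lowest values was 24.9 to 34.9 M reads (M, mega) in the metaphysis and 18.6 to 54.3 M in the diaphysis, so that 1 read on a transcript of 1 kb was worth 0.0184 to 0.0537 RPKM. The globin share of all RPKM was 19 to 22.1% in the WT metaphysis libraries and 13.5 to 17.2% in the cKO metaphysis libraries. In the diaphysis that share was 32.6, 17.9 and 15.1% in WT and 26.5, 15.3 and 18.7% in cKO. The first cKO diaphysis library, with 26.5%, also had the lowest depth, 18.6 M. Dlx3 itself read 8.37, 8.9 and 10.1 RPKM in the WT metaphysis and 1.98, 2.8 and 3.24 RPKM in the cKO metaphysis. In the diaphysis it read 3.22, 7.64 and 13.1 RPKM in WT and 0.763, 1.55 and 1.17 RPKM in cKO. The groups did not overlap in either region, and each exact two-sided permutation test gave p = 0.1, the smallest that 3 against 3 allows.

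The genes lie side by side on chromosome 12, at chr12:105366206-105652539 in the mm9 build (NCBIM37), a stretch of 286 kb. GENCODE annotates 14 Serpina3 genes in the cluster, among them the pseudogenes Serpina3d-ps, Serpina3e-ps and Serpina3l-ps. Of the 9 genes described, 8 lie on the plus strand and Serpina3c lies on the minus strand. Serpina3f, g, h and i follow one another without another gene of the family between them. Serpina3h is annotated as a processed transcript by GENCODE and as a transcribed pseudogene by RefSeq, and its longest open reading frame has 171 codons, against 248 codons in Serpina3g and 408 to 432 codons in the others.

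**Figure D1:**
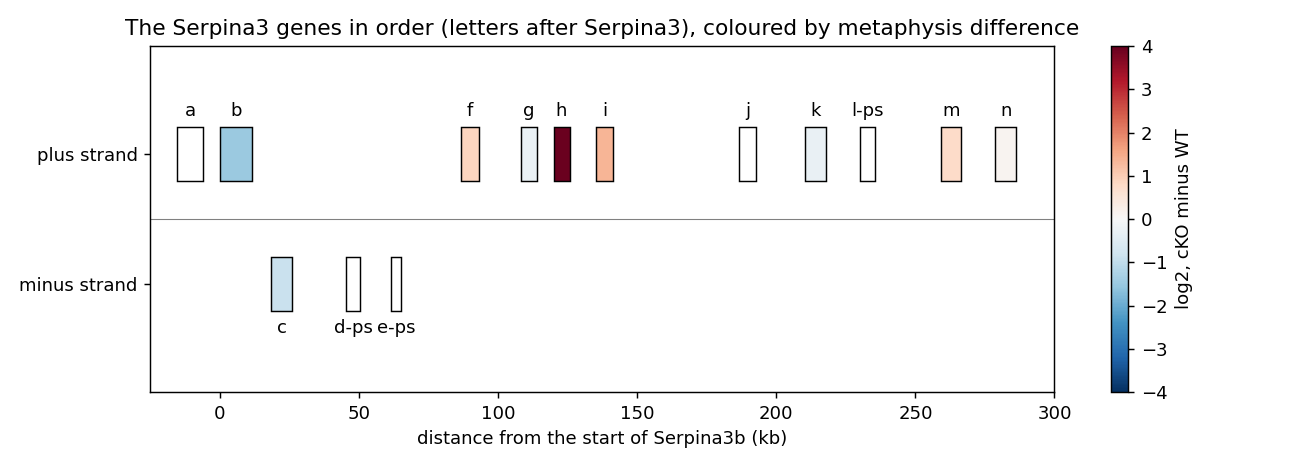
The Serpina3 genes in genomic order, with the distance from the start of Serpina3b in kb on the horizontal axis and the strand on the vertical axis. Colour gives the metaphysis difference, cKO minus WT, on the log2(RPKM + 0.1) scale, and genes in white are not among the 9. Serpina3h, the darkest at 3.95, lies between Serpina3g at -0.26 and Serpina3i at 1.36.

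The reactive centre loop is shown for the 6 genes on which the results turn, because it is where the copies can be told apart. Each sequence is read 5′ to 3′ from the mm9 genome on the plus strand and lies within 1 annotated exon. The stretches were found by likeness to Serpina3n. Their first 36 bases, in lower case, correspond to the hinge of the loop, and the last 24, also in lower case, to the strand after it. The capitals between them are the variable part, which holds the bait residues in Serpina3n. Whether the other copies, among them Serpina3h, carry these bases in an open reading frame was not checked. The positions are chr12:105491709-105491813 for Serpina3h, chr12:105506678-105506782 for Serpina3i, chr12:105479270-105479374 for Serpina3g, chr12:105458443-105458550 for Serpina3f, chr12:105376863-105376967 for Serpina3b and chr12:105651646-105651750 for Serpina3n.
Serpina3h: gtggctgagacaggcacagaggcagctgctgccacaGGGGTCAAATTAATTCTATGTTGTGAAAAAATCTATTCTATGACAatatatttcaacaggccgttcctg
Serpina3i: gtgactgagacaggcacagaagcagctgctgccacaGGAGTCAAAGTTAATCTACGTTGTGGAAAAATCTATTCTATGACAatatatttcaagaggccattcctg
Serpina3g: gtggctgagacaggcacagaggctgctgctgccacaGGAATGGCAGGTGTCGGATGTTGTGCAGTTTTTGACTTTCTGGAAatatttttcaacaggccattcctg
Serpina3f: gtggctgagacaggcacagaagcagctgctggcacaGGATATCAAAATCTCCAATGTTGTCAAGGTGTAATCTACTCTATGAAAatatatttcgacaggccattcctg
Serpina3b: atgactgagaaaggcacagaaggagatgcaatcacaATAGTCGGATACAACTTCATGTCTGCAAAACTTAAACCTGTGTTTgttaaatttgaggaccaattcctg
Serpina3n: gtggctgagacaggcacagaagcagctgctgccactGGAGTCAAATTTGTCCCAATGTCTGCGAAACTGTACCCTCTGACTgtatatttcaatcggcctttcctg
Serpina3h and Serpina3i differed at 6 of the 45 bases in capitals, and Serpina3h and Serpina3g at 24. Serpina3b and Serpina3n differed at 18 of 45 and Serpina3b and Serpina3h at 25. The hinge was closer between copies, with 2 differences from Serpina3n in Serpina3h, in Serpina3i and in Serpina3f, 3 in Serpina3g and 9 in Serpina3b.

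The summed level of the 9 genes did not separate the genotypes in the metaphysis, while the make-up of the sum did. Serpina3f and h, and at low levels Serpina3i and m, were higher in every cKO library than in any WT library. Serpina3b and Serpina3c were lower. Serpina3g and Serpina3n, the most abundant copies, overlapped between genotypes, as did Serpina3k. In the diaphysis 8 of the 9 genes overlapped. Among all genes tested, 18.7% lay all above and 18.4% all below in the metaphysis. The shares were 2.24% and 0.789% in the diaphysis, so most genes overlapped there. Since these are pieces of whole bone, fewer cells of a type and less RNA per cell cannot be told apart.

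Serpina3h, whose open reading frame is the shortest of the genes described, read 0.278, 0.0152 and 0.2 RPKM in the WT metaphysis. In the cKO metaphysis it read 4.46, 3.7 and 2.68 RPKM. The lowest cKO library stood far above the highest WT library, and the ratio of the means was 22. At these depths the WT libraries hold 9.7, 0.527 and 5.5 reads per kb of transcript and the cKO libraries 111, 121 and 84.7. On the log2 scale the difference was 3.95 ± 0.56 (SE, n = 3 per group). It lay between 3.43 and 4.29 when any 1 library was left out, and was 1.97 with a pseudocount of 1 and 4.95 with one of 0.01. With globin left out and the libraries rescaled it was 3.95.

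Serpina3f, 2 genes away from it on the same strand, read 1.64, 1.37 and 1.95 RPKM in the WT metaphysis and 3.38, 3.76 and 2.39 RPKM in the cKO metaphysis. All cKO libraries were above all WT libraries, by 0.89 ± 0.24 (SE, n = 3 per group) on the log2 scale and 1.92-fold between the means. Serpina3i, the copy most like Serpina3h, read 0.0334, 0.154 and 0.154 RPKM in WT and 0.703, 0.335 and 0.317 RPKM in cKO. It too was higher in each cKO library, by 1.36 ± 0.43 (SE, n = 3 per group) on the log2 scale, at levels that correspond to 1.17 to 5.32 reads per kb in WT and 10 to 17.5 in cKO. Together Serpina3f, h and i summed to 1.95, 1.54 and 2.3 RPKM in WT and 8.54, 7.8 and 5.39 RPKM in cKO.

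Serpina3b, at the start of the cluster, went the opposite way. It read 1.12, 1.07 and 1.39 RPKM in the WT metaphysis and 0.517, 0.348 and 0.259 RPKM in the cKO metaphysis. Each WT library was above each cKO library, the WT mean was 3.18-fold higher, and the log2 difference was -1.47 ± 0.25 (SE, n = 3 per group). Serpina3c, its neighbour on the opposite strand, read 1.08, 0.767 and 1.14 RPKM in WT and 0.293, 0.749 and 0.513 RPKM in cKO. The groups were apart by a narrow margin, from 0.749 to 0.767 RPKM, with a log2 difference of -0.88 ± 0.36 (SE, n = 3 per group).

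Serpina3g, the cathepsin inhibitor, was the most abundant copy in the WT metaphysis, at 9.61, 8.09 and 11.5 RPKM, and read 9.05, 8.31 and 6.81 RPKM in cKO. The groups overlapped, with a log2 difference of -0.26 ± 0.19 (SE, n = 3 per group). Serpina3n, the granzyme B and elastase inhibitor, read 6.32, 7.73 and 7.81 RPKM in WT and 4.41, 13.9 and 7.72 RPKM in cKO. The cKO libraries held both the lowest and the highest value of the 6, and the log2 difference of 0.10 ± 0.48 (SE, n = 3 per group) became -0.31 without cKO replicate 2, the library with 13.9 RPKM. Serpina3m and Serpina3k stayed low. Serpina3m lay between 0.0189 and 0.265 RPKM in WT and between 0.268 and 0.397 RPKM in cKO, and Serpina3k reached no more than 0.133 RPKM in any metaphysis library.

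**Figure D2:**
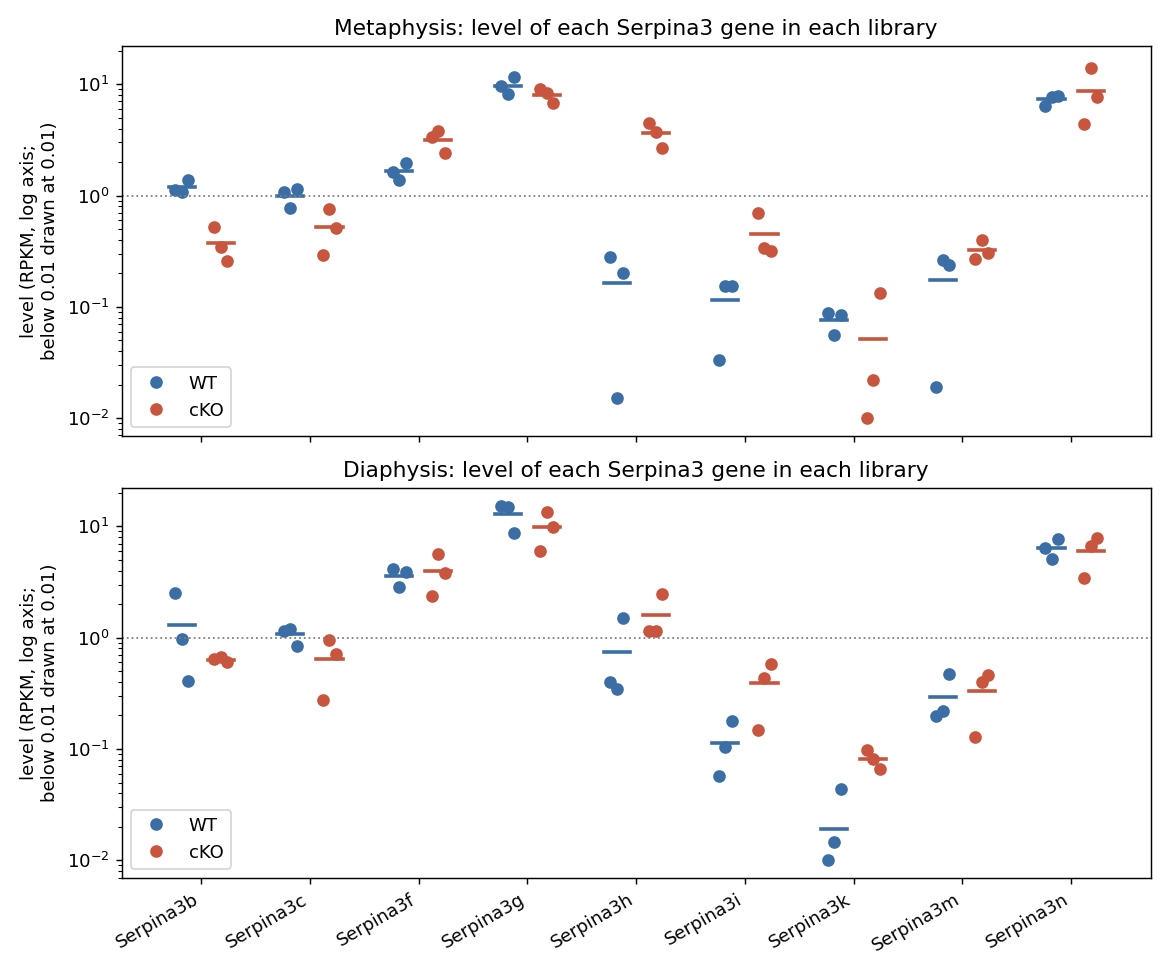
RPKM of each Serpina3 gene in each library on a log axis, metaphysis above and diaphysis below, with WT in blue and cKO in red, horizontal bars at the group means and a dotted line at 1 RPKM. Values below 0.01 RPKM are drawn at 0.01. In the metaphysis the Serpina3h points of the genotypes lie furthest apart, at 0.0152 to 0.278 RPKM in WT and 2.68 to 4.46 RPKM in cKO.

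All 9 genes together summed to 20.2, 19.5 and 24.4 RPKM in the WT metaphysis and 23.1, 31.5 and 21.1 RPKM in the cKO metaphysis, so the totals overlapped. Serpina3g and Serpina3n made up 58.3 to 81.1% of the sum. Serpina3h gave 0.078 to 1.37% of it in WT and 11.8 to 19.3% in cKO. Serpina3b gave 5.48 to 5.68% in WT and 1.1 to 2.24% in cKO.

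**Figure D3:**
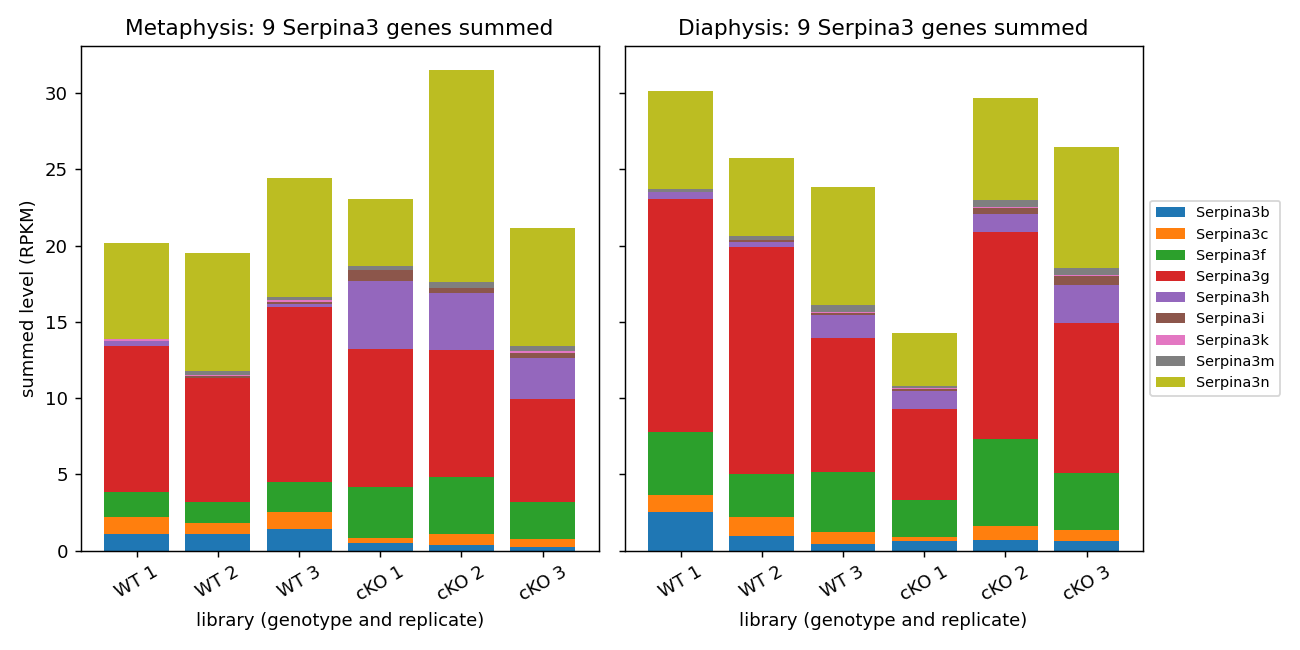
Summed RPKM of the 9 Serpina3 genes in each library, stacked by gene, for the metaphysis on the left and the diaphysis on the right. The Serpina3h segment is 2.68 to 4.46 RPKM tall in the 3 cKO metaphysis libraries and at most 0.278 RPKM in the WT metaphysis libraries, while the totals overlap.

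For scale, cKO libraries lay all above WT libraries for 4 of the 9 genes in the metaphysis (Serpina3f, h, i and m) and all below for 2 (Serpina3b and c). Serpina3c, i and m did not pass the filter for testing. Of the Serpina3 genes that did, only Serpina3f and h lay all above and only Serpina3b all below. Among all 12641 genes tested in the metaphysis, 18.7% lay all above and 18.4% all below. In the limma fit of all these genes 7.51% were called higher in cKO and 3.89% lower at an adjusted p under 0.05, in all 1441 genes. That count was 105 without cKO replicate 3, and leaving out WT replicate 1, 2 or 3 in turn gave 188, 243 and 672. These shares are given as the background only, since the same contrast led to the choice of the genes. The filter asked for 1 RPKM in 3 libraries and was passed by 5 of the 9, namely Serpina3b, f, g, h and n. Serpina3b passed through its WT libraries alone and Serpina3h through its cKO libraries alone, so both had to differ. Just inside the filter, Serpina3b reached 1 RPKM in 3 libraries, and just outside it Serpina3c did so in 2. The median difference of the 9 genes, 4 of them below the filter, was 0.10, against -0.04 over all genes tested.

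The diaphysis offers values that the choice of the genes did not use, although results of both regions were known beforehand. Serpina3h read 0.399, 0.349 and 1.49 RPKM in WT and 1.14, 1.15 and 2.49 RPKM in cKO. The third WT library lay above the lower cKO libraries, so the groups overlapped. The log2 difference was 1.16 ± 0.68 (SE, n = 3 per group), with an adjusted p of 1 and an unadjusted p of 0.0781 in limma. Serpina3h reached 1 RPKM in 4 diaphysis libraries, all those of cKO and the third of WT. It thus passed the filter through its higher group, and this p is no support for a difference. The log2 difference lay between 0.81 and 1.75 when any 1 library was left out.

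Serpina3f read 4.12, 2.83 and 3.89 RPKM in the WT diaphysis and 2.38, 5.67 and 3.8 RPKM in the cKO diaphysis, a log2 difference of 0.06 ± 0.39 (SE, n = 3 per group). Its sign turned without WT replicate 2, to -0.10, and without cKO replicate 2, to -0.24. Serpina3i read 0.0567, 0.105 and 0.177 RPKM in WT and 0.147, 0.435 and 0.583 RPKM in cKO. Its groups overlapped by 1 library of each genotype, with a difference of 1.11 ± 0.50 (SE, n = 3 per group) on the log2 scale and a mean 3.43-fold higher in cKO.

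Serpina3b spread widely in the WT diaphysis, at 2.51, 0.982 and 0.411 RPKM, while the cKO libraries lay close together at 0.639, 0.668 and 0.603 RPKM. The cKO values fell inside the WT range, and the log2 difference was -0.62 ± 0.68 (SE, n = 3 per group). Serpina3c read 1.16, 1.2 and 0.834 RPKM in WT and 0.277, 0.956 and 0.715 RPKM in cKO, with overlap and a difference of -0.75 ± 0.47 (SE, n = 3 per group). Serpina3g, at 15.3, 14.9 and 8.81 RPKM in WT and 6.01, 13.6 and 9.84 RPKM in cKO, had the highest mean of the family in both genotypes. Its genotypes overlapped, as did those of Serpina3n, which read 6.4, 5.13 and 7.7 RPKM in WT and 3.44, 6.7 and 7.91 RPKM in cKO. Serpina3n had a log2 difference of -0.15 ± 0.40 (SE, n = 3 per group), which was 0.20 without cKO replicate 1. Serpina3m ranged from 0.129 to 0.471 RPKM over the 6 libraries, and the sign of its difference of 0.09 ± 0.50 (SE, n = 3 per group) changed without either of WT replicates 1 and 2 or of cKO replicates 2 and 3.

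Serpina3k was the only gene of the 9 whose diaphysis groups did not overlap, at 0, 0.0146 and 0.0433 RPKM in WT and 0.0984, 0.0809 and 0.0662 RPKM in cKO. These levels correspond to at most 3.59 reads per kb in any library, and Serpina3k did not pass the filter. Among the 12540 genes that passed it in the diaphysis, 2.24% had all cKO libraries above all WT libraries and 0.789% all below. limma called 0% of them higher and 0% lower, with 86 genes at an unadjusted p under 0.05. Of the Serpina3 genes f, g, h and n were tested, each with an adjusted p of 1. The median difference of the 9 genes, 5 of them below the filter, was 0.06, against 0.00 over all genes tested.

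**Figure D4:**
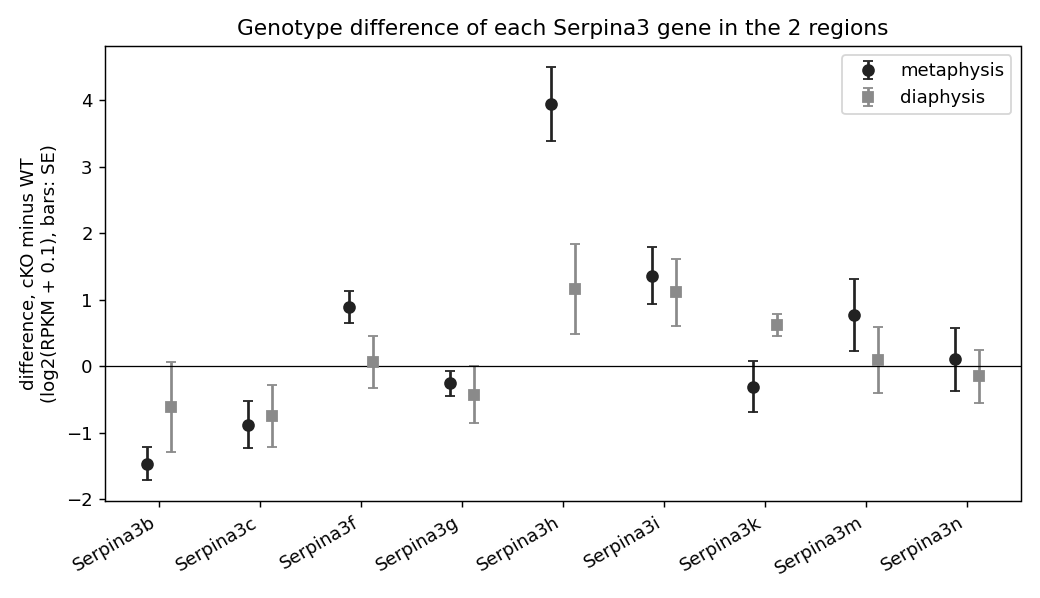
Difference of each Serpina3 gene between genotypes, cKO minus WT, on the log2(RPKM + 0.1) scale, with bars of 1 SE from 3 libraries per group. Black circles are the metaphysis and grey squares the diaphysis. Serpina3h stands at 3.95 in the metaphysis and 1.16 in the diaphysis, and Serpina3b at -1.47 and -0.62.

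Of the 9 genes, 7 had a difference of the same sign in the regions, and Serpina3k and Serpina3n did not. The same count was not made over all genes, so it is no result about these genes. Among the 7, the diaphysis differences of Serpina3f, 0.06, and Serpina3m, 0.09, changed sign on leaving out single libraries. The regions' tables were normalised separately and the metaphysis values chose the genes, so the difference between regions was not tested. Side by side, the WT mean of Serpina3h was 0.164 ± 0.135 RPKM in the metaphysis and 0.745 ± 0.643 RPKM in the diaphysis (SD, n = 3 each). The WT mean of Serpina3f was 1.65 ± 0.29 RPKM in the metaphysis and 3.61 ± 0.689 RPKM in the diaphysis (SD, n = 3 each). In the WT metaphysis the means ranked Serpina3g, n, f, b, c, m, h, i and k. Serpina3g at 9.72 ± 1.69 RPKM and Serpina3n at 7.29 ± 0.836 RPKM did not overlap there, but Serpina3f and b did, as did Serpina3b and c, and Serpina3m, h, i and k overlapped in turn. In the WT diaphysis the order was Serpina3g, n, f, b, c, h, m, i and k, and of these neighbours Serpina3b with c, c with h and h with m overlapped.

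How far the copies can be told apart bears on every value above. Over the 36 pairs of longest spliced transcripts the identity in the local alignment ran from 72.5 to 94%, with a median of 80.5%. The 3 closest pairs all held Serpina3h, at 94% with Serpina3i over 1049 aligned bases, 93.9% with Serpina3g over 838 and 93.1% with Serpina3f over 1052. Stretches of 50 bases, a length chosen here, were compared with no mismatch allowed, so near-identical stretches are not counted. Of those in Serpina3h, 21.9% also occurred in another copy, 15.8% in Serpina3i. That share was 19.1% for Serpina3m, 17.6% for Serpina3k, 15.4% for Serpina3i, 14.2% for Serpina3g and 10.4% for Serpina3f, and 6.9% or less for Serpina3n, c and b. How shared reads were assigned is not given in the sources used here, and 357 to 479 transcripts per library had values above 0 but below 1e-05 RPKM, less than any whole read could give. The values of Serpina3h and Serpina3i are therefore uncertain as a split between them, and their part in each other's level was not tested. Serpina3g had 8.16% of its stretches of 50 bases in Serpina3h and overlapping genotypes in the metaphysis. Whether shared reads had a part in its level was not tested either. The sum of Serpina3f, g, h and i, 11.6, 9.63 and 13.8 RPKM in WT and 17.6, 16.1 and 12.2 RPKM in cKO, overlapped.

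**Figure D5:**
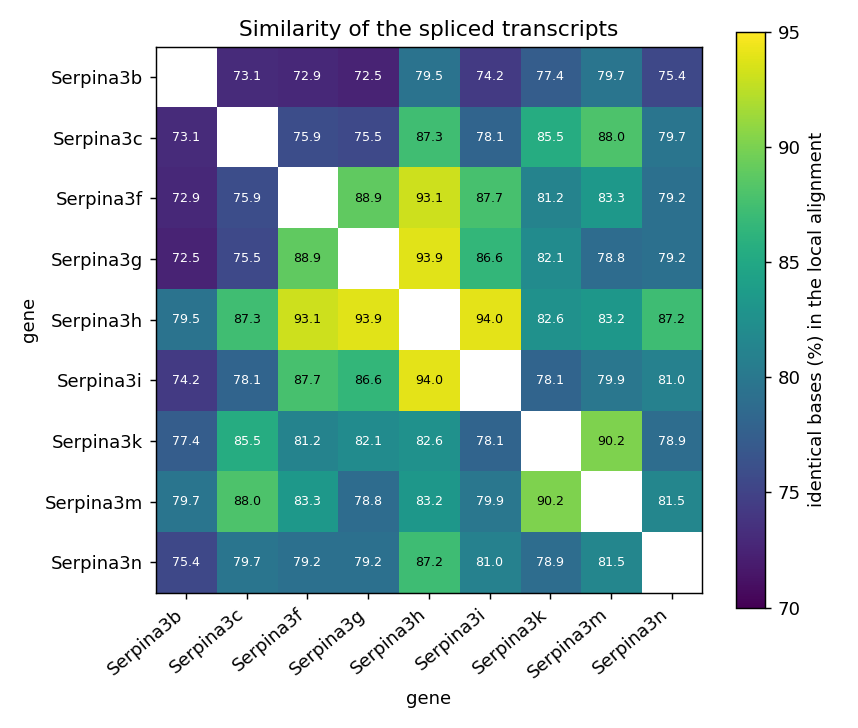
Identical bases in percent between the longest spliced transcripts of each pair of the 9 genes, in the best local alignment. Serpina3h has the highest values, 94% with Serpina3i, 93.9% with Serpina3g and 93.1% with Serpina3f, and Serpina3b with Serpina3g the lowest, 72.5%.

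Across the 6 metaphysis libraries the levels of Serpina3f and Serpina3h had a Pearson r of 0.94, Serpina3b and Serpina3h one of -0.87 and Serpina3c and Serpina3i one of -0.88. In the diaphysis the same pairs had r of 0.19, -0.76 and -0.14. These are descriptions over 6 libraries of both genotypes in each region and carry no test, and the metaphysis difference between genotypes chose the genes. Outside the family, the gene most like Serpina3h over the 12 libraries, each centred on its region's mean, was Homer3 with r = 0.95, followed by Ctdspl with 0.94 and Pros1 with 0.92. Taken by region, in the same order, r was 0.99, 0.94 and 0.97 in the metaphysis and 0.74, 0.93 and 0.75 in the diaphysis. Pros1 encodes protein S, a cofactor in the control of clotting. For Serpina3f they were Btla with 0.94, a receptor of lymphocytes, Rnasek with 0.91 and Hgs with 0.89. Exoc1 with 0.95, B630005N14Rik with 0.93 and Ly9 with 0.93, a surface receptor of lymphocytes, were most like Serpina3g, and Gm12034 with 0.88, Arsk with 0.86 and Zfp691 with 0.86 most like Serpina3n. Serpina3b, compared over the 6 metaphysis libraries only, was closest to Wdr44 and Tmco6, each with r = 1.00 after rounding, and to Nras with 0.99. These were the highest of 12317 genes compared, or 12636 for Serpina3b, and the libraries share genotype and depth.

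Upstream of the genes, 6 of the 9 (Serpina3b, c, f, g, i and n) had entries in the RefSeq promoter table (GRCm38.p6), which covers 250 bases before to 50 bases after each start. Both strands of these 7 entries were searched for TAATTG, a core of homeodomain binding sites, and for TTCNNNGAA, the spaced palindrome that STAT factors bind. TAATTG occurred in 0 of the 7, against 8% of 32851 promoters, which says only that these letters are not in these windows. Serpina3h, k and m were not searched. TTCNNNGAA occurred in the entries of Serpina3f, g and i, against 8.3% of all promoters. The windows of 40 bases around it are shown with the match in capitals, followed by the most similar stretch of Serpina3b and of Serpina3n. Each is read 5′ to 3′ on the plus strand of GRCm38.p6. The positions are chr12:104214403-104214442 for Serpina3f, chr12:104236094-104236133 for Serpina3g, chr12:104263000-104263039 for Serpina3i, chr12:104127853-104127892 for Serpina3b and chr12:104406565-104406604 for Serpina3n.
Serpina3f: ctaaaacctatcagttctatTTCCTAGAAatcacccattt
Serpina3g: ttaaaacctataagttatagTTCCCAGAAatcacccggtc
Serpina3i: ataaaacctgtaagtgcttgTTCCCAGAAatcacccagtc
Serpina3b: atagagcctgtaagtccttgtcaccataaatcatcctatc
Serpina3n: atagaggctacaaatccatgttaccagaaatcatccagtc
From Serpina3f the window differed at 8 bases in Serpina3g, at 9 in Serpina3i, at 14 in the closest stretch of Serpina3c, which is not shown and lacks the match, and at 16 in Serpina3b and Serpina3n. These windows are alike in sequence, so they do not count as 3 separate matches against the 8.3%. Of the 3 genes with the match, Serpina3f and Serpina3i had all cKO libraries above all WT libraries in the metaphysis and Serpina3g did not. The same contrast chose the genes, and a link between match and level was not tested. A match of letters is a description and not a binding site, and binding was not measured.

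Lists of related genes were read from the limma fits as counts of called members. Every call named in the lists below was lost when the 12 libraries shared 1 estimate of spread, and those of Timp1, Ctsk, Mmp9 and Serping1 also without the filter on low values. The background in the metaphysis is 7.51% of all genes tested called higher and 3.89% lower, 11.4% in all, with a median difference of -0.04, and no list was tested against it. For unadjusted counts the background is 3862 of 12641 genes with a limma p under 0.05 in the metaphysis. There 3 of 19 acute-phase and STAT3 pathway genes were called higher and 0 lower, with a median difference of 0.01. They were Lifr, a receptor of the interleukin-6 cytokine family, Timp1, an inhibitor of metalloproteinases, and Cp, the copper carrier ceruloplasmin. Timp1 rose from 29.3 ± 7.12 to 74.8 ± 18.9 RPKM (SD, n = 3 per group, limma adjusted p = 0.0192), a call lost without WT replicate 1, WT replicate 2 or cKO replicate 3. Lifr rose from 27.4 ± 4.29 to 53.9 ± 4.82 RPKM (limma adjusted p = 0.0117), a call lost without WT replicate 1, and Cp by 0.63 ± 0.09 (SE) on the log2 scale (limma adjusted p = 0.0136), a call lost without cKO replicate 3. Steap4, with a difference of 0.56, was not called. Of 25 interferon gamma response genes limma called 0, with 5 at an unadjusted p under 0.05 and a median difference of -0.04, and of 17 glucocorticoid response genes Cdkn1a, a cell cycle inhibitor, was called higher by 0.91 ± 0.15 (SE, limma adjusted p = 0.0161), a call lost without WT replicate 1 or cKO replicate 3.

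Among other serpins 3 of 11 tested were called higher and 1 lower, with a median difference of 0.16, against 7.51% higher and 3.89% lower over all genes. Serpine2, protease nexin-1, an inhibitor of thrombin, rose from 226 ± 36.1 to 452 ± 34.5 RPKM (SD, n = 3 per group, limma adjusted p = 0.0117). Serpinh1, the collagen chaperone Hsp47, rose from 256 ± 39.8 to 414 ± 25.8 RPKM (limma adjusted p = 0.0192), and Serpinb8 from 2.09 ± 0.45 to 4.27 ± 0.331 RPKM (limma adjusted p = 0.0183). Both calls were lost without WT replicate 1 or cKO replicate 3, and that of Serpinh1 also without WT replicate 2. Serping1, the C1 inhibitor, fell from 40.3 ± 11 to 23.4 ± 3.41 RPKM (limma adjusted p = 0.0491), a call that held in 2 of 14 alternatives and was lost on leaving out any 1 library.

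Proteases of the kinds that serpins meet in bone and blood were called higher for 2 of 17 tested and lower for 0, with a median difference of -0.24. That share is near the 11.4% called over all genes and is no result about proteases. The called genes were Ctsk, the collagen-degrading cathepsin of osteoclasts, which rose from 889 ± 98.4 to 1430 ± 80.3 RPKM (SD, n = 3 per group, limma adjusted p = 0.0175), and Mmp9, a metalloproteinase and so not a class that serpins inhibit, which rose from 374 ± 84.8 to 705 ± 74.3 RPKM (limma adjusted p = 0.0238). Each of these calls was lost without WT replicate 1, WT replicate 2 or cKO replicate 3. Mcpt8, a basophil protease, had a difference of -0.41 and Ctsg, cathepsin G of neutrophils and the classical target of alpha-1-antichymotrypsin, one of -0.48, and neither was called. Among the tested neighbours on chromosome 12 outside the Serpina3 genes described 0 of 9 were called by limma. An unadjusted p under 0.05 was reached by 1 of the 9, against 3862 of all 12641 genes tested. Otub2 stood at -0.81 ± 0.22 (SE, limma adjusted p = 0.0586), Asb2 at -0.91, Serpina1a at 0.53 and Dicer1 at -0.08. In the diaphysis limma called 0 members of these 6 lists, with 2 at an unadjusted p under 0.05, both of them other serpins.

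Cell type markers moved with genotype in the metaphysis, and their part in the Serpina3 differences was not tested. Against 7.51% of all genes called higher and 3.89% lower, 7 of 15 osteoblast markers were called higher in cKO, with sums of 15348 to 19790 RPKM in WT and 23930 to 25617 RPKM in cKO. Of 10 chondrocyte markers 7 were called higher, with sums of 643 to 908 RPKM in WT and 1319 to 2121 RPKM in cKO. Of 6 osteoclast markers 5 were called higher, with sums of 1859 to 2298 and 3377 to 3789 RPKM, and of 10 endothelial markers 6, with sums of 122 to 125 and 180 to 186 RPKM. Called lower were 5 of 9 B lymphocyte markers, with sums of 352 to 442 RPKM in WT and 226 to 282 RPKM in cKO, and 4 of 12 erythroid markers, with sums of 46228 to 52502 and 34539 to 44543 RPKM.

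Most of these marker counts depended on single libraries. Leaving out WT replicate 1, WT replicate 2 or cKO replicate 3 gave 0, 1 and 0 osteoclast markers called higher, 3, 4 and 2 chondrocyte markers, and 3, 3 and 2 endothelial markers. The B lymphocyte markers called lower were then 0, 3 and 2. The erythroid count was 0 without any of the 3 WT libraries or cKO replicate 3 and with globin left out and the libraries rescaled, and 7 without cKO replicate 1. The osteoblast count lay between 5 and 7 on leaving out any 1 library, and was 0 when the 12 libraries shared 1 estimate of spread. That setting left 0 markers called in the other lists of this paragraph, except 1 chondrocyte marker.

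The other marker lists had few calls. Of 11 monocyte and macrophage markers 2 were called higher and 1 lower, with sums of 431 to 462 RPKM in WT and 426 to 495 RPKM in cKO, and the counts were 0 without WT replicate 1, WT replicate 2 or cKO replicate 3. Of 10 fibroblast and tendon markers 2 were called higher, with sums of 370 to 493 and 305 to 420 RPKM, and 0 or 1 on leaving out any 1 library. Skeletal muscle markers had 1 of 8 called lower, a count of 0 to 7 on leaving out any 1 library with 7 without cKO replicate 2, with sums of 4931 to 7426 RPKM in WT and 2150 to 8318 RPKM in cKO. By limma 0 were called of 12 neutrophil, 6 mast cell and basophil, 5 T and NK lymphocyte and 6 adipocyte markers. Against 3862 of all 12641 genes tested, 1, 4, 0 and 1 of these markers had an unadjusted limma p under 0.05. Their sums in WT and cKO overlapped except for the mast cell and basophil markers, at 49.6 to 67.8 and 37 to 49 RPKM. Hepatocyte markers were near 0, with sums over all measured of 0.104 to 0.33 RPKM in the metaphysis and 0.0878 to 0.557 RPKM in the diaphysis, below the level of Serpina3n alone in each library. In the diaphysis the osteoblast marker sums ran from 5155 to 29263 RPKM in WT and 12166 to 17429 RPKM in cKO. Osteoclast marker sums there ran from 337 to 1819 RPKM in WT and 871 to 1467 RPKM in cKO. The part of this spread in the Serpina3 overlaps of the diaphysis was not tested.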

How the data were processed

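Trizol RNA went into TruSeq RNA libraries, per the labels' protocols, and this kit does not mark the strand. The authors deposited 1 table per region with RPKM per RefSeq transcript and library, per the file headers. Tools listed in the submitters' processing notes are Partek 6.6, TopHat 1.3.2, CASAVA 1.8.2 and Bowtie 0.12.7.0, with the build mm9. The annotation release is not given in the sources used here. RPKM does not correct for composition, so a larger globin share lowers all other genes.

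Transcripts were summed per symbol, genes reaching 1 RPKM in 3 of a region's 6 libraries were kept, and log2(RPKM + 0.1) was fitted per region in R 4.3.3 by limma 3.58.1 (trend option, 2-sided) with Benjamini-Hochberg adjustment over all genes and a threshold of 0.05. The fit was tested on simulated data. Sequences came from NCBIM37 with GENCODE annotation and from RefSeq tables, read with Python 3.11.15 and biopython 1.88. Serpina3 genes and gene lists were chosen with earlier results of these data known. Named were the 9 genes, Dlx3, the 3 genes most correlated with each Serpina3 gene past the filter, and up to 4 genes per list with the smallest p in the metaphysis. Replicate numbers only name libraries. Alternatives changed the pseudocount, filter, scaling, spread, trend, transcript choice and library set.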

Additional observations from a re-analysis of the deposited data

How the results depend on the processing

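The count of genes called in the metaphysis, 1441, was 789 without a filter on low values and 8 when 12 libraries shared 1 estimate of spread. It ranged from 105 to 1418 when a single library was left out. Without the globin transcripts it was 1177, and the share of higher calls moved from 65.9% to 74.5%. In the diaphysis 0 genes were called under each of the 14 alternatives. No paired analysis was possible because the labels give no pairs, and the numbers that begin the library titles are not shared between regions. Of the 18 differences of the Serpina3 genes, the metaphysis ones kept their sign in each of 11 alternatives, except Serpina3n in 1. In the diaphysis Serpina3f, m and n changed sign on leaving out single libraries. Of the 56 counts under alternatives of gene lists that had calls in the metaphysis, 41 stayed within 1.5 times, 14 were lower and 1 higher. Serpina3k lies at the level of a few reads in every library, as do Serpina3i and m in some, which limits their precision, and the size of their differences moves with the pseudocount.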

Other observations

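Serpina3f is represented by 3 transcript rows, and their shares of its level changed from library to library. The row NM_001168295 read 0.968, 0.0588 and 1.9 RPKM in the WT metaphysis and 0.419, 3.07 and 2.07 RPKM in cKO, while NM_001033335 read 0.481, 0.616 and 0.0341 RPKM in WT and 2.12, 0.495 and 0.23 RPKM in cKO. With the row of the highest mean alone, the difference of Serpina3f was 1.13 in the metaphysis and 0.79 in the diaphysis on the log2 scale, against 0.89 and 0.06 for the sum. Serpina3j, which lies in the same cluster, reached no more than 0.056 RPKM in any library.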
